A study of Drosophila melanogaster with 10 samples.

Results

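The genes of chromosome 4 of Drosophila melanogaster were followed in RNA libraries of OSC (ovarian somatic cells), a cell line grown from the soma of the fly ovary. A gene was a member if its locus lay on chromosome 4 in build dm3 and its mean over the 6 RNA libraries was at least 1 RPKM (reads per kilobase of gene, scaled to library size). Of 13984 genes in the deposited tables, 84 lay on chromosome 4 and 63 of these passed the level, against 7690 genes that passed it in all. Cells were grown at 26 °C and taken for poly(A) RNA 2 days after siRNA transfection. Of the 6 cultures, 5 received siRNAs against HP1a, Mael, CG3893, Piwi or Armi, and the control culture received an siRNA against EGFP, a sequence foreign to these cells. All 6 cultures therefore share the line and the transfection, and each knock-down or control is 1 library. No difference between libraries has a replicate check, and no p-value is given. The tables of the 4 Pol II immunoprecipitation libraries used here hold transposon families alone and give no value for these genes.

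Chromosome 4 is the smallest chromosome of the fly. Its genes lie among repeats, in chromatin that carries HP1a and methylated histone H3 lysine 9, marks of heterochromatin elsewhere, and yet many of them are transcribed. The protein encoded by Pof, which binds this chromosome in particular, is known to raise the output of its genes, and HP1a is known to lower it. Piwi, Mael and CG3893 act in the nuclear piRNA pathway, in which small RNAs guide silencing to transposons, and Armi helps to make those small RNAs.

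The targeted genes were lower in their own libraries. The gene for HP1a stood at 30.2% of control in the HP1a library, mael at 10.3% in Mael, CG3893 at 48.4% in CG3893, piwi at 30.1% in Piwi and armi at 35.9% in Armi. Depth relative to control, read from the steps between low values, was 54.3% in HP1a, 74.3% in Mael, 92.5% in CG3893, 108% in Piwi and 65.5% in Armi. The soma markers tj, Fas3, fs(1)Yb, piwi and zfh1 were all detected. In HP1a, Fas3 was at 107.9 RPKM, against 41.5 RPKM in control, while tj was at 151 RPKM, against 195 RPKM in control, and the other 3 were also below control. In the other 4 knock-downs Fas3 lay between 102% (Mael) and 151% (Piwi) of control and tj between 97.3% (Mael) and 106% (Piwi). In the HP1a library 5 of 6 germline markers were above control, with a summed level of 10.8 RPKM against 3.92 RPKM in control. Of these sums vas held 6.38 RPKM in HP1a and 1.56 RPKM in control. The 4 hemocyte and fat body markers summed to 21.9 RPKM in HP1a, against 8.94 RPKM in control, where Fbp1 was listed at 0. Nearly all of this was srp, at 21.6 RPKM in HP1a and 8.83 RPKM in control. In HP1a Hml was at 0.027 RPKM, Lsp2 at 0.224 and Fbp1 at 0.016. In the other 4 knock-downs the germline sum lay between 3.87 and 4.20 RPKM and the hemocyte and fat body sum between 10.7 and 11.5 RPKM. The part of these differences in the chromosome 4 values was not tested.

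Levels on the chromosome were uneven. RpS3A, which encodes a protein of the small ribosomal subunit, averaged 1940.2 RPKM over the 6 libraries, and ATPsyn-beta, which encodes a subunit of the mitochondrial ATP synthase, averaged 910.1 RPKM. These genes held between 46.9% (HP1a) and 57.0% (control) of the summed RPKM of the chromosome. CG32850 followed with a mean of 222 RPKM, which it reached through the knock-down libraries. After it came CG1970, a subunit gene of respiratory complex I, at 167 RPKM and Arf102F, a small GTPase gene of vesicle transport, at 160.5 RPKM. In all, 7 genes averaged at least 100 RPKM, 41 lay between 10 and 100, 15 between 1 and 10, 9 between 0.1 and 1 and 12 under 0.1. The lowest gene above the limit was sphinx, at 1.01 RPKM, and the highest below it was CG31997, at 0.448 RPKM. The median member stood at 36.7 RPKM, against 23.9 RPKM for genes of the other arms.

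The summed level of the chromosome differed little between libraries. It was 5587 RPKM in HP1a, 5669 in Mael, 5702 in CG3893, 5361 in Piwi and 5481 in Armi, against 5639 RPKM in control. As a share of all gene RPKM this was 0.978% in HP1a, 0.999% in Mael, 0.935% in CG3893, 0.880% in Piwi and 0.876% in Armi, against 0.863% in control. The share was thus highest in Mael and lowest in control, but its base differed, since all genes summed to 567622 RPKM in Mael and 571376 in HP1a, against 653145 RPKM in control. Without RpS3A, ATPsyn-beta and CG32850 the sum was 2439.7 RPKM in HP1a, 2659 in Mael, 2601 in CG3893, 2464 in Piwi and 2448 in Armi, against 2393 RPKM in control.

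Each member was then compared with control as log2((knock-down + 1)/(control + 1)), which understates changes of low genes. In the Mael library the median change of the 63 members was 0.18, against -0.06 for 7627 genes of the other arms. Only 12 members were below control in Mael, where 60.2% of all 7690 genes were. In CG3893 the median was 0.12, against -0.02 on the other arms, and 10 members were below control, where 54.5% of all genes were. In HP1a it was 0.07, against -0.08, with 27 members below control and 60.8% of all genes. In Piwi it was 0.04, against -0.04, with 26 below and 61.2% of all genes. In Armi it was 0.01, against -0.03, with 30 below and 59.0% of all genes. In Mael both quartiles of members were also higher, at 0.05 and 0.30, against -0.20 and 0.08 on the other arms. All 5 comparisons share the single control library.

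**Figure D1:**
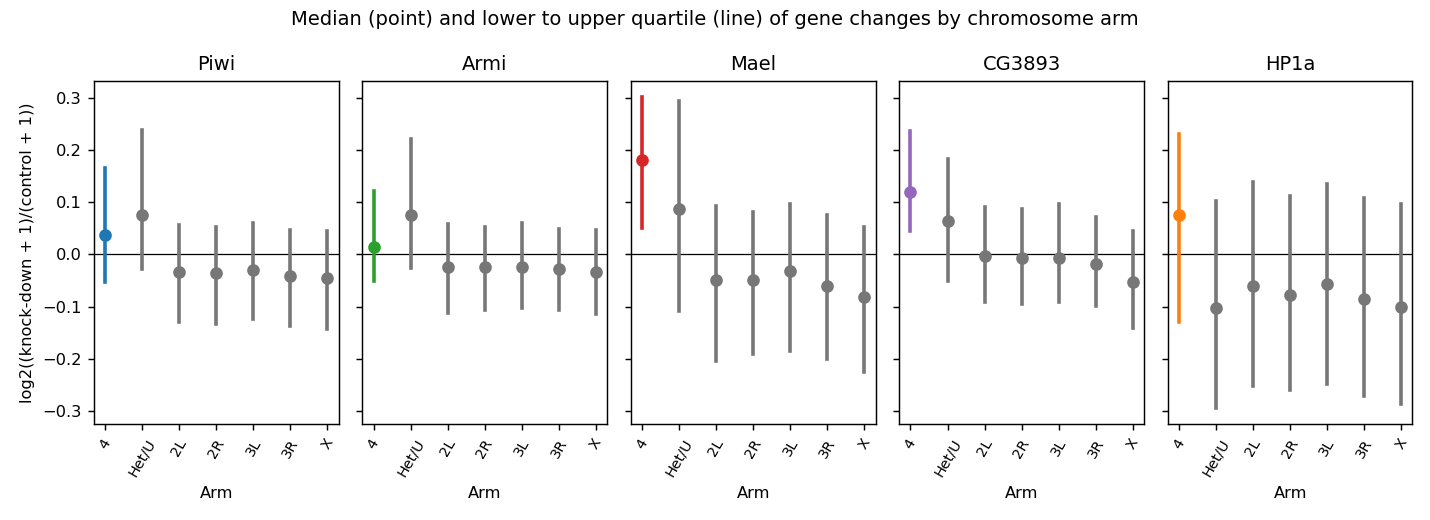
Median log2 change from control (points) with the lower and upper quartiles (lines) for genes with a mean of at least 1 RPKM, per knock-down, for chromosome 4 (63 genes, coloured), heterochromatic or unplaced arms (Het/U, 49 genes) and each large arm. Chromosome 4 lies above the 5 large arms in all 5 panels, by most in Mael, where its median is 0.18.

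None of the large arms shared this shift. In Mael the arm medians were -0.05 for 2L, -0.05 for 2R, -0.03 for 3L, -0.06 for 3R and -0.08 for X. The 49 genes on heterochromatic or unplaced arms, the part of the genome most like chromosome 4, had medians of -0.10 in HP1a, 0.09 in Mael, 0.06 in CG3893, 0.08 in Piwi and 0.08 in Armi. They lay above chromosome 4 in Piwi and Armi and below it in the other 3 libraries. In HP1a 30 of the 49, or 61.2%, were below control, near the 60.8% of all genes. No test of these differences was possible with 1 library each.

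The choice of base mattered for the shift in each knock-down. Against control, the median of chromosome 4 minus that of the other arms was 0.15 in HP1a, 0.24 in Mael and 0.14 in CG3893. When each library was set against the mean of the 6 libraries in place of control, the median of chromosome 4 minus that of the other arms was 0.03 in HP1a, 0.12 in Mael, 0.04 in CG3893, -0.01 in Piwi and -0.05 in Armi. In the control library itself it was -0.11. So each knock-down had a lower difference with this base than against control. Mael stood highest and control lowest for this chromosome. The small positive differences of Piwi (0.07) and Armi (0.04) against control changed sign with this base. The drop and the change of sign largely follow from the base itself. Departures from a shared mean must nearly balance, and control lay at -0.11. They are therefore no separate result for Piwi or Armi. This comparison was added after the values were seen.

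Counted gene by gene, 32 of 63 members had their highest level in the Mael library, where 12.9% of all genes did. The Mael library held the lowest level of 2 members, where 18.6% of all genes had theirs. Control held the lowest level of 20 members, against 16.3% of all genes, and the highest of 5, against 31.4%. Those 5 are RpS3A, ATPsyn-beta, Sox102F, CG11148 (a GYF domain protein that acts in translational control) and CG11076. HP1a held the lowest level of 22 members, or 34.9%, close to the 37.0% of all genes. It held the highest of 13, or 20.6%, against 24.1%. CG3893 was highest for 11 members, against 12.9% of all genes, and lowest for 1, against 6.53%. Piwi was highest for 1, against 8.28%, and lowest for 6, against 10.6%, while Armi was highest for 1, against 10.5%, and lowest for 12, against 11.1%.

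**Figure D2:**
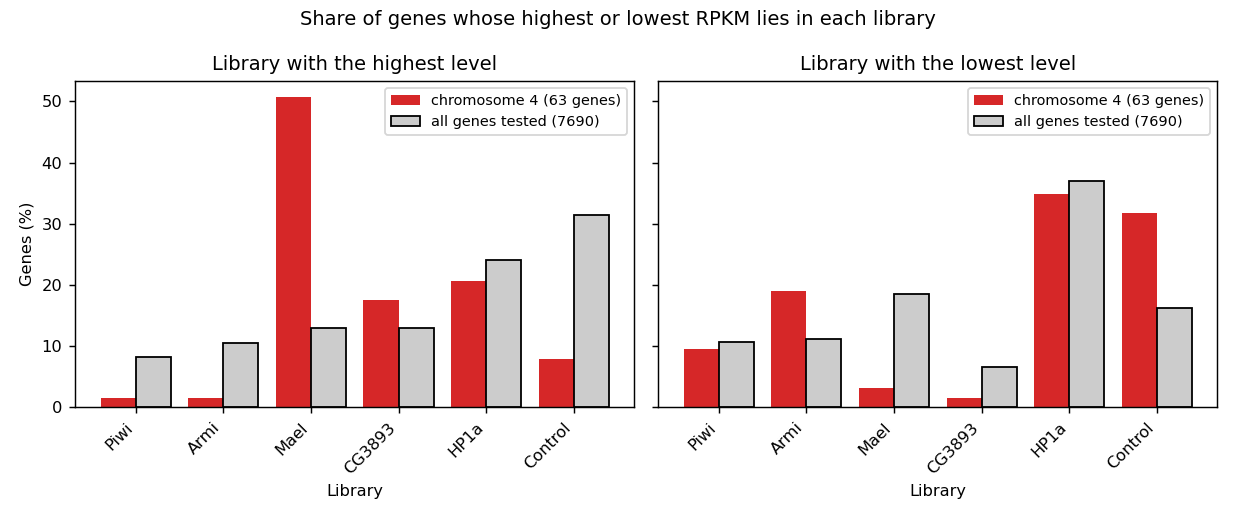
Share of genes, in percent, whose highest (left panel) or lowest (right panel) RPKM of the 6 libraries lies in each library, for the 63 chromosome 4 genes (red) and all 7690 genes tested (grey). The Mael library holds the highest level of 32 of the 63 chromosome 4 genes.

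Against genes of like level, the same pattern was seen in the lower bands. Between 10 and 100 RPKM, the band of 41 members and 4881 other genes, median changes were 0.18 on chromosome 4 and -0.06 elsewhere in Mael. In the same band they were 0.11 and -0.02 in CG3893, 0.07 and -0.09 in HP1a, 0.04 and -0.03 in Piwi, and 0.02 and -0.03 in Armi. Between 1 and 10 RPKM, with 15 members and 1837 other genes, they were 0.49 on chromosome 4 and 0.01 elsewhere in HP1a. In this band they were 0.34 and 0.01 in Mael, 0.30 and 0.04 in CG3893, 0.05 and -0.03 in Piwi, and -0.01 and -0.02 in Armi. At 100 RPKM and above, the median of the 7 members lay above or below that of the 909 other genes, depending on the library. Their medians were -0.11 against -0.17 in Mael, 0.05 against -0.07 in CG3893, -0.22 against -0.20 in HP1a, -0.06 against -0.08 in Piwi, and -0.06 against -0.03 in Armi. The largest difference, in HP1a between 1 and 10 RPKM, therefore rests on 15 low genes. One of them is sphinx, which passed the level through its HP1a value, and the median without it was not computed. Their quartiles in HP1a were -0.11 and 0.55. Of the 15, 6 were below control in HP1a, or 40%, against 47.2% of the other genes in this band.

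**Figure D3:**
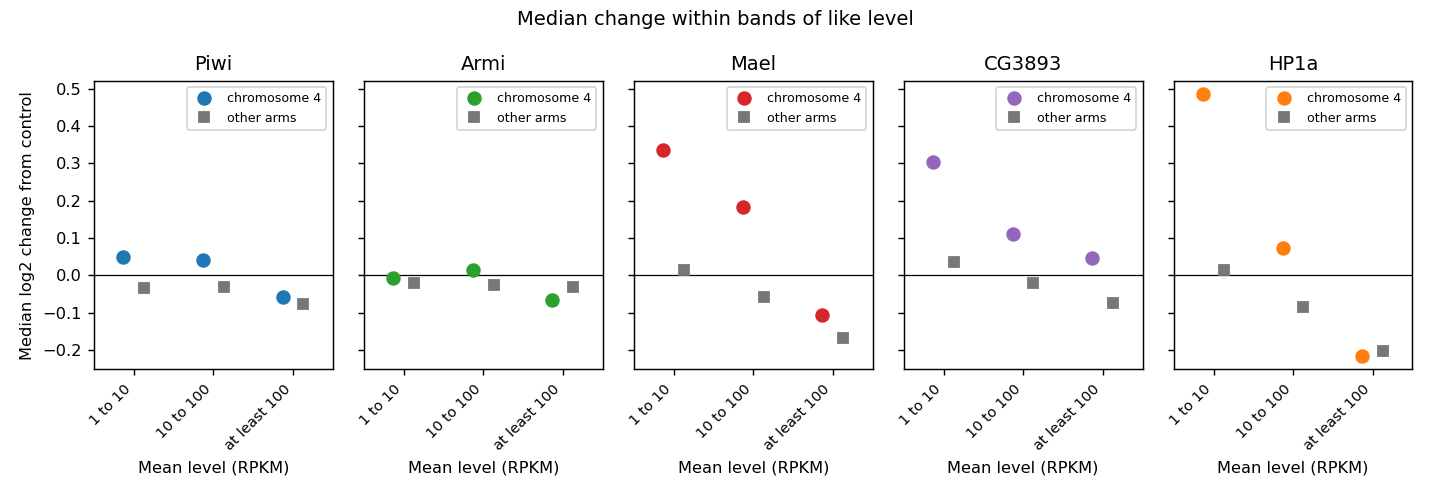
Median log2 change from control by band of mean RPKM, for chromosome 4 (circles) and the other arms (squares), per knock-down. Chromosome 4 lies above the other arms in both lower bands of every panel, while in the highest band, which holds 7 chromosome 4 genes, it lies above them in Mael, CG3893 and Piwi and below them in HP1a and Armi.

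Loci on chromosome 4 are long, with a median span of 8447 bases against 2507 on the other arms. To compare like with like, genes were split at 8447 bases. Among loci of at least that span, the medians in HP1a were 0.03 for 32 members and 0.00 for 1246 other genes, a difference of 0.03. Among shorter loci they were 0.08 for 31 members and -0.09 for 6381 other genes, a difference of 0.18. In Mael the difference was 0.19 among long loci and 0.24 among short ones. In CG3893 it was 0.13 and 0.15, in Piwi 0.06 and 0.06, and in Armi 0.00 and 0.06.

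Few members were far from control. All limits of fold were read on the log2(RPKM + 1) scale, on which a low gene can stay within a limit that its plain ratio passes. Of the 63, 54 lay within 1.5-fold of control in all 5 knock-downs, or 85.7%, against 84.9% of all genes. In all, 5 members were past 1.5-fold higher in Piwi, where 2.96% of all genes were. There were 5 in HP1a (7.00% of all genes), 6 in Mael (3.90%), 4 in CG3893 (2.34%) and 4 in Armi (2.15%). Past 1.5-fold lower there was 1 in HP1a (5.55%), 1 in Mael (2.64%), 0 in CG3893 (0.832%), 0 in Piwi (1.77%) and 0 in Armi (1.13%). Past 2-fold higher there were 3 in HP1a (3.85%), 2 in Mael (2.42%), 2 in CG3893 (1.01%), 2 in Piwi (1.56%) and 3 in Armi (0.975%). Past 2-fold lower there were 0 members in each library, where 1.90% of all genes were in HP1a, 0.806% in Mael, 0.377% in CG3893, 0.468% in Piwi and 0.429% in Armi. In all 5 knock-downs at once 0 members were past 1.5-fold lower (0.130% of all genes) and 0 past 2-fold lower (0.0130%). These counts hold sphinx, which passed the level through its knock-down values. With the level set on control alone, which leaves 62 members, 4 were past 1.5-fold higher in HP1a, 5 in Mael, 3 in CG3893, 4 in Piwi and 4 in Armi, and 2 were past 2-fold higher in HP1a. The share of all genes was not computed for that choice of level.

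Across the 6 libraries the ratio of a member's highest to its lowest level had a median of 1.25, and for 7556 genes of the other arms above 0 in all libraries it was also 1.25. Between 1 and 10 RPKM it was 1.81 for members and 1.53 elsewhere. In that band 12 of 15 members varied by over 1.5 times, against 52.9% of other genes.

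The gene with the widest change on this scale was CG32850, which encodes a RING finger protein, named Rnf11 in the release 6 gene table (chromosome 4, 335571 to 342013). It stood at 527 RPKM in HP1a, 290.3 in Mael, 118 in CG3893, 218 in Piwi and 147 in Armi, against 31.5 RPKM in control. Every knock-down was above control, and the ratio lay between 3.75-fold in CG3893 and 16.7-fold in HP1a. It was the single member past 2-fold higher in all 5, where 0.377% of all genes were. In these bulk samples, more cells with the RNA and more RNA per cell cannot be told apart. Nearby members did not share the change. CG2177, a zinc transporter gene 1037 bases away on the centromere side, had log2 changes between -0.01 (HP1a) and 0.21 (Mael). PMCA, which encodes the calcium pump of the plasma membrane, lies 7428 bases away on the other side and had changes between 0.10 (CG3893) and 0.30 (Mael).

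Kif3C, a kinesin motor gene (1168091 to 1189865), was the other member past 1.5-fold higher in all 5 knock-downs. All 7690 genes gave 92 such genes, or 1.20%. Kif3C stood at 57.8 RPKM in HP1a, 94.5 in Mael, 76.6 in CG3893, 87.0 in Piwi and 82.6 in Armi, against 35.6 RPKM in control. Its order differed from that of CG32850, since HP1a held the lowest of the 5 knock-down values here and the highest there. The fold was 2.65 in Mael and 1.62 in HP1a. Its neighbours CG32017, 942 bases away, and pho, which encodes a DNA-binding Polycomb group protein and lies 3228 bases away, had changes of -0.25 and 0.24 in Mael and -0.26 and -0.06 in HP1a.

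The gene bent (bt), which encodes the giant muscle protein projectin (745029 to 796707), was low. Its level was 5.29 RPKM in HP1a, 2.51 in Mael, 1.94 in CG3893, 2.53 in Piwi and 2.30 in Armi, against 1.17 RPKM in control. All 5 knock-downs were above control, and HP1a was highest, at 4.52-fold. Of the neuron and muscle markers, the muscle myosin gene Mhc was at 4.32 RPKM in HP1a, against 5.44 RPKM in control, and in the other knock-downs at 106% to 113% of control. The neuronal gene elav was at 12.4 RPKM in HP1a, against 10.1 RPKM in control, and Syt1 was at or near 0 in all 6 libraries. MED26, a Mediator subunit gene 2372 bases away, had changes between -0.01 (Piwi) and 0.19 (Mael). On the other side the nearest gene was ey (718314 to 741785), an eye selector gene under the level. It stood at 0.751 RPKM in HP1a, against 0.254 RPKM in control. The nearest member on that side was myoglianin, 28354 bases away. Its changes were 0.32 in HP1a and 0.35 in Mael, and between 0.12 (Piwi) and 0.17 (CG3893) in the other knock-downs. Whether bt and ey changed together was not tested.

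The long non-coding RNA gene sphinx (995793 to 997927) lies inside the locus of CG11093, so reads of either may be counted in the other. It stood at 2.53 RPKM in HP1a, 1.02 in Mael, 0.706 in CG3893, 1.09 in Piwi and 0.575 in Armi, against 0.132 RPKM in control. It was the single member under 1 RPKM in control, and its mean of 1.01 RPKM passed the level through its HP1a value, so its place among the genes past 1.5-fold comes in part from that choice. The number of reads behind these values could not be recovered, so their counting error is unknown. Part of sphinx derives from a copy of an ATP synthase gene, and reads of that relative may also be shared. CG11093, named fuss in the release 6 table and related to the Ski and Sno proteins, had 2.77 RPKM in HP1a, 2.44 in Mael, 2.21 in CG3893, 2.20 in Piwi and 1.49 in Armi, against 1.56 RPKM in control. Both were highest in HP1a.

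CG33521 (1206398 to 1213327) had its highest levels in Armi and Piwi. It stood at 1.88 RPKM in HP1a, 1.71 in Mael, 2.09 in CG3893, 2.80 in Piwi and 3.23 in Armi, against 1.00 RPKM in control. Its locus overlaps that of CG17471, which encodes a lipid kinase (PIP4K) at a mean of 91.5 RPKM. The changes of CG17471 lay between 0.09 (Armi) and 0.27 (Mael).

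The gene yellow-h, of the yellow family of secreted proteins (248549 to 251054), was past 1.5-fold in HP1a alone. It stood at 3.74 RPKM in HP1a, 1.74 in Mael, 2.32 in CG3893, 1.5 in Piwi and 1.57 in Armi, against 1.66 RPKM in control. The recovered reads were 93, 59, 98, 74 and 47 in the same order, against 76 in control. The fold in HP1a was 2.25, with a 95% exact (Clopper-Pearson) interval of 1.65 to 3.09. That interval covers counting error alone: without molecular identifiers, reads do not stand for independent molecules. Its neighbour CG31999, 1969 bases away, was also highest in HP1a, at 5.37 RPKM against 3.54 RPKM in control, a change of 0.49. The changes of CG31999 in the other knock-downs lay between -0.21 (Armi) and 0.09 (CG3893). CG1674, 301 bases away on the other side, had a change of -0.25 in HP1a.

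**Figure D4:**
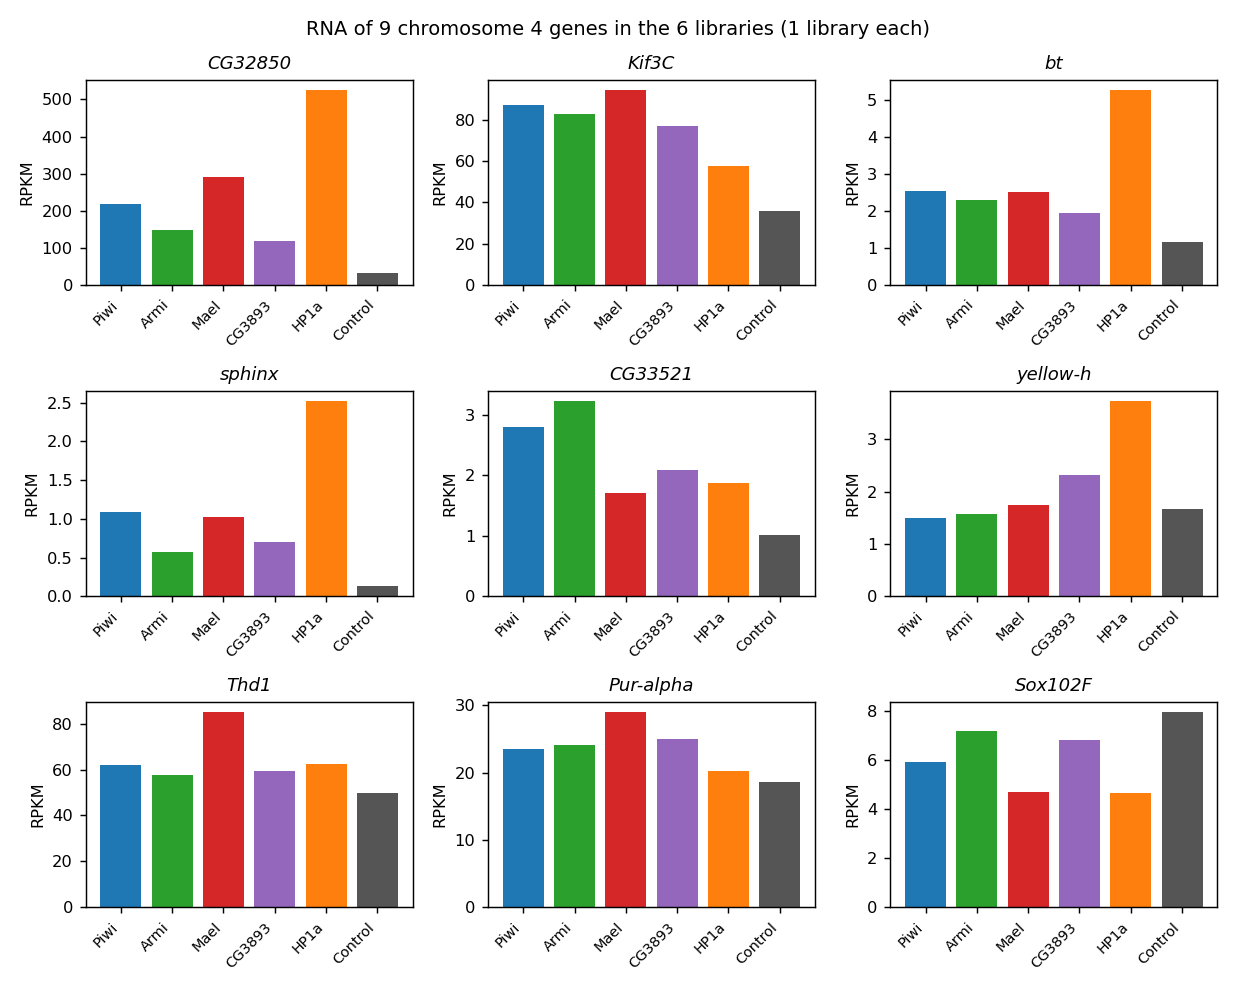
RPKM of the 9 chromosome 4 genes past 1.5-fold on the log2(RPKM + 1) scale in at least 1 knock-down, in each of the 6 libraries (bars, 1 library each, linear axes that differ between panels). CG32850, bt, sphinx and yellow-h are highest in HP1a, Kif3C, Thd1 and Pur-alpha in Mael, CG33521 in Armi and Sox102F in control.

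In Mael a pair of adjoining genes passed 1.5-fold. Thd1, which encodes a thymine DNA glycosylase (565891 to 578440), stood at 62.2 RPKM in HP1a, 85.2 in Mael, 59.5 in CG3893, 62.0 in Piwi and 57.6 in Armi, against 49.8 RPKM in control. Pur-alpha, a gene for a single-strand nucleic acid binding protein (578607 to 586562), stood at 20.3 RPKM in HP1a, 29.0 in Mael, 24.9 in CG3893, 23.6 in Piwi and 24.1 in Armi, against 18.6 RPKM in control. Both genes were highest in Mael and lowest in control, and their loci are 167 bases apart.

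Sox102F, a transcription factor gene of the SoxD class (821055 to 854639), was, on the log2(RPKM + 1) scale, the single member lower than control by over 1.5-fold. It stood at 4.66 RPKM in HP1a, 4.71 in Mael, 6.83 in CG3893, 5.92 in Piwi and 7.19 in Armi, against 7.99 RPKM in control. Every knock-down was below control, and Mael, at 0.590-fold, and HP1a, at 0.584-fold, were the lowest.

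By role, most transcription factor and chromatin genes lay near control. Of 19 on the chromosome 11 passed the level, among them ci, the effector of Hedgehog signalling, and pan, the DNA-binding partner of the Wnt effector Armadillo. Past 1.5-fold, Pur-alpha was higher and Sox102F lower in Mael, and Sox102F was lower in HP1a. The list's median change was 0.02 in HP1a, 0.19 in Mael, 0.17 in CG3893, 0.07 in Piwi and 0.02 in Armi. The largest change of pan was 0.53, in HP1a, at 8.19 RPKM against 5.36 RPKM in control. The levels of ci stayed between 45.2 RPKM (HP1a) and 50.9 RPKM (CG3893) in the knock-downs, against 44.7 RPKM in control.

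Of 17 signalling genes 14 passed the level, and CG32850 was the one past 1.5-fold in each knock-down. Their median was 0.07 in HP1a, 0.21 in Mael, 0.11 in CG3893, 0.05 in Piwi and 0.00 in Armi. The gene mav, which encodes a TGF-beta family ligand, had 8.94 RPKM in HP1a, 14.4 in Mael, 12.8 in CG3893, 12.0 in Piwi and 10.2 in Armi, against 12.1 RPKM in control. CaMKII, a calcium-dependent kinase gene, was at 37.3 RPKM in HP1a, against 48.7 RPKM in control. The plexin receptor genes plexA and plexB had changes within -0.12 and 0.36. In Mael all 14 were above control, down to 0.00 for plexA, as were all but 12 of the 63 members.

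Of 10 transport, synapse and membrane genes 7 passed the level, and 0 were past 1.5-fold in any knock-down. Their median was 0.25 in Mael and 0.11 in HP1a. The highest change was that of Caps, a gene of vesicle release, at 0.45 in Mael. All 9 genes of protein synthesis, energy and cell maintenance passed the level. Their median was -0.22 in HP1a, -0.09 in Mael, 0.05 in CG3893, -0.06 in Piwi and -0.05 in Armi, below the median of the chromosome in each. Of these genes RpS3A, ATPsyn-beta, CG1970, Arf102F, Rad23 and eIF4G averaged at least 100 RPKM. Genes of the other arms at that level had medians of -0.20 in HP1a, -0.17 in Mael, -0.07 in CG3893, -0.08 in Piwi and -0.03 in Armi. The part of level in the medians of this list was not tested. RpS3A had changes between -0.37 (Piwi) and -0.13 (CG3893), and ATPsyn-beta between -0.31 (HP1a) and -0.06 (CG3893). Kif3C and, in Mael, Thd1 were the members of this list past 1.5-fold. Of the 3 cytoskeleton and muscle genes, Zyx102EF and Ank stayed within 0.25 of control while bt did not.

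Among 18 members in no list, CG32016, which encodes the translational repressor 4E-T, was at 29.3 RPKM in HP1a, against 41.6 RPKM in control, and at 39.7 to 43.9 RPKM in the other knock-downs. CG41130 is a locus of 405 bases inside Mitf, among the 5 lowest in HP1a and the 5 highest in CG3893. It had 1.03 RPKM in HP1a, 3.00 in Mael, 3.02 in CG3893, 1.81 in Piwi and 2.56 in Armi, against 1.95 RPKM in control. The remaining genes among the 5 lowest of a knock-down were Asator, CG11360, CG31999, CG32017 and CG11077, all within 1.5-fold of control on the log2(RPKM + 1) scale. The values of CG41130 rest on 2 reads in HP1a, 10 reads in CG3893 and 7 reads in control. The interval of the HP1a ratio, 0.0533 to 2.76, includes 1, as does that of CG3893, 0.531 to 4.78.

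Genes encoded elsewhere that act on this chromosome or in HP1a chromatin were also read. Outside its own knock-down, the gene for HP1a stood at 80.4% of control in Mael, 90.6% in CG3893, 93.0% in Piwi and 97.1% in Armi. The part of these levels in the chromosome 4 values was not tested. Pof stood at 13.7 RPKM in HP1a, 16.2 in Mael, 14.5 in CG3893, 14.8 in Piwi and 16.2 in Armi, against 14.8 RPKM in control. The histone methyltransferase genes egg, Su(var)3-9 and G9a lay between 74.8% of control, for Su(var)3-9 in HP1a, and 115% of control, for G9a in Mael. The gene wde, which encodes the partner of Egg, was at 16.8 RPKM in HP1a, against 8.92 RPKM in control, and at 110% to 122% of control in the other knock-downs.

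No gradient was seen along the chromosome. Members ran from plexB near the centromere to Caps near the telomere, and the 7 windows of 200 kb held 6 to 12 of them each. Spearman's rho between change and locus midpoint over the 63 members was -0.12 in HP1a, 0.04 in Mael, 0.06 in CG3893, -0.10 in Piwi and 0.07 in Armi, as a description across genes of the same libraries. In Mael the window medians were 0.17, 0.20, 0.15, 0.20, -0.10, 0.06 and 0.35 from the centromere side. The fifth window, from 800 to 1000 kb, was the only one below 0 in Mael, with 8 members, and was also below 0 in Piwi, Armi and HP1a, at -0.05 in each. The last window, from 1200 kb, with 6 members, was the highest of the 7 in Mael, CG3893, Piwi and Armi, with medians of 0.35 in Mael and 0.30 in CG3893. It also had the lowest median level of the 7, at 17.1 RPKM. Its members CG33521, CG17471, Mitf and CG41130 overlap another locus. Over the 63 members rho between change and mean level was -0.31 in Mael and -0.37 in CG3893. The part of level or overlap in this window was not tested. The genes past 1.5-fold were spread over the chromosome, with Thd1 and Pur-alpha the only adjoining pair past it in 1 library.

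**Figure D5:**
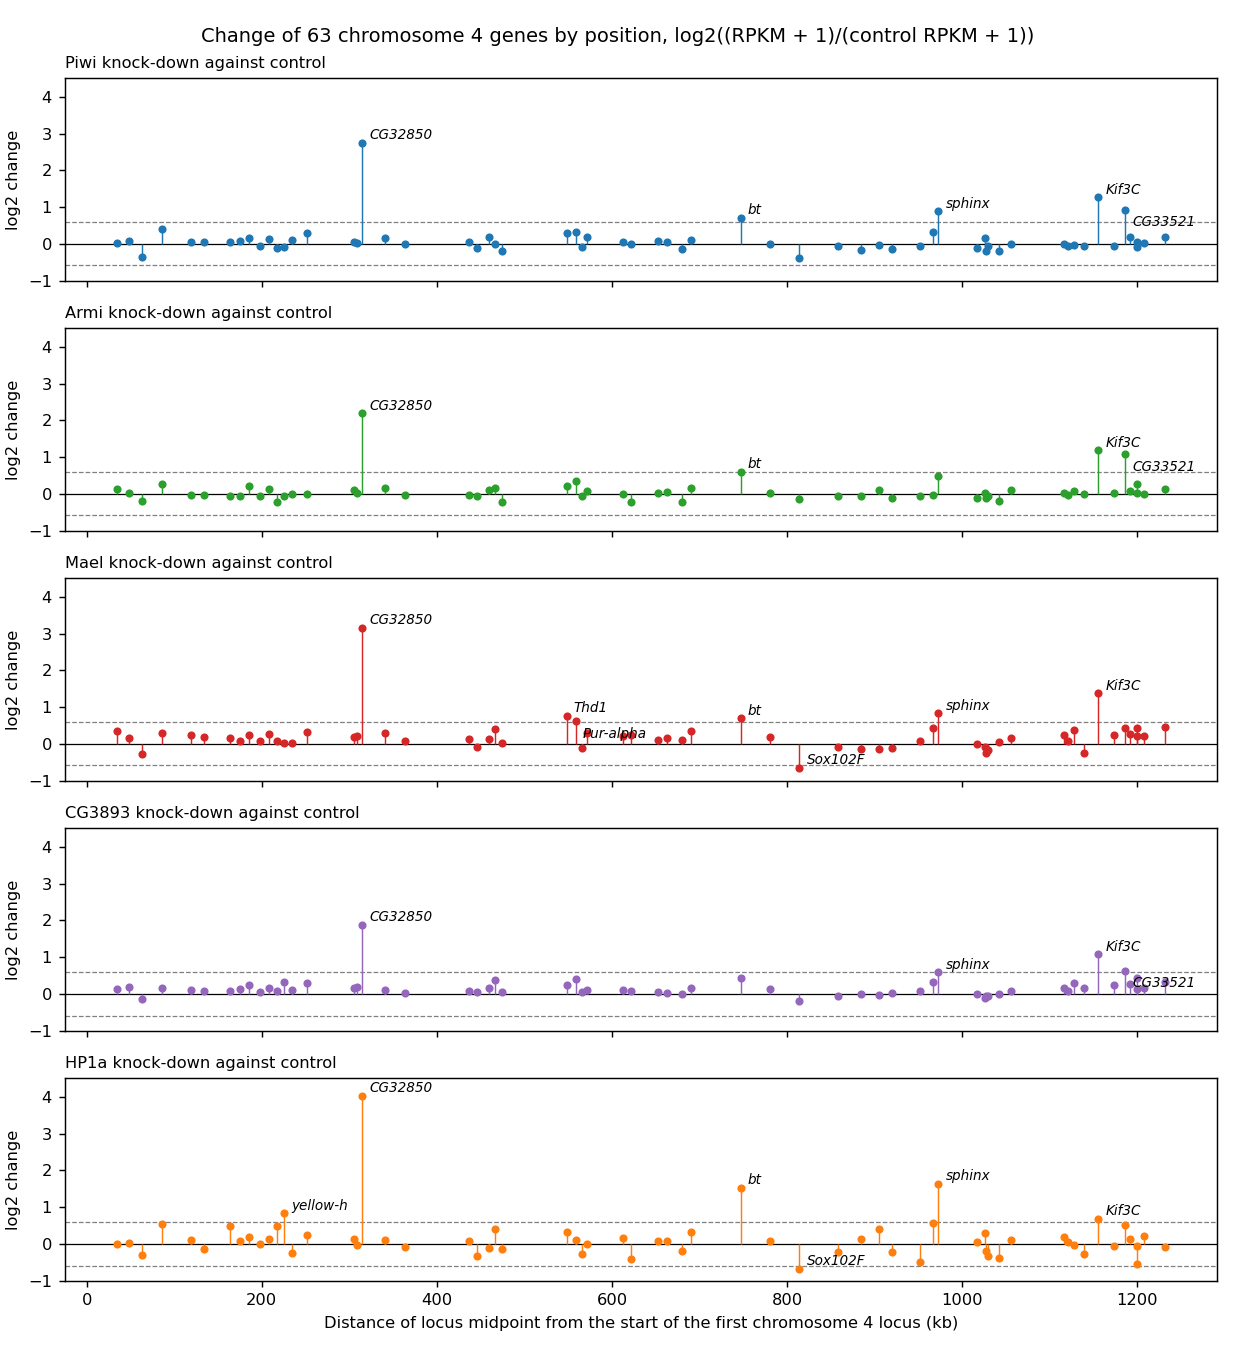
Log2((RPKM + 1)/(control RPKM + 1)) of the 63 chromosome 4 genes against the distance of the locus midpoint from the start of the first locus, in kb, with the centromere side left. Dashed lines mark 1.5-fold, and genes past it are named. Most points lie near 0, and Thd1 and Pur-alpha in Mael are the only adjoining pair past the line.

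The 21 genes under the level were not silent in every case, though CG33797 was listed at 0 in all 6 libraries. In HP1a they summed to 4.37 RPKM, against 2.60 RPKM in control, with 10 above and 10 below control. Among 4456 genes of the other arms under the level, 45.3% were above control in HP1a, so the count of 10 of 21 is near that share. In the other knock-downs the sum lay between 2.48 RPKM (Piwi) and 2.89 RPKM (CG3893). The transcription factor gene zfh2 had 97 reads in HP1a, 78 in Mael, 46 in CG3893, 76 in Piwi and 59 in Armi, against 43 in control. At their depths this gave a fold of 4.15 in HP1a, with a counting interval of 2.87 to 6.09. The eye selector gene ey, which lies beside bt, stood at 0.751 RPKM in HP1a, against 0.254 RPKM in control. In the other knock-downs it was at 0.206 to 0.313 RPKM. Syt7, a synaptotagmin gene, was at 0.687 RPKM in HP1a, against 0.228 RPKM in control.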

How the data were processed

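Per the submitters' processing notes, the RNA libraries were processed with TopHat2 2.0.7, Cufflinks 2.0.2, Bowtie2 2.0.0 and cutadapt on build dm3. The authors deposited gene levels as RPKM, per the file headers; which annotation was used, whether strand was read and how repeated matches were counted is not given in the sources used here. Hence loci that overlap another (9 of 63 members) can share reads with it. Coordinates are as deposited; whether starts count from 0 or 1 is not stated. From 14145 rows, 161 repeats of a gene name were summed, giving 13984 genes.

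Changes are log2((knock-down + 1)/(control + 1)); printed folds are plain ratios. With 1 library per group, limits of 1.5-fold and 2-fold stood in the place of a test. Relative depth came from the most frequent ratio between low values of a knock-down and control; reads were recovered for genes with at most 100 reads where every value was whole within 0.01 reads. Total depth per library was not derived. The scripts were tested on simulated data.

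The rule for named genes took the 5 highest and the 5 lowest changes in each knock-down (21 genes in all, the lowest within 1.5-fold given by range or by example), the 5 highest levels, the largest changes per role list, and genes under the level chosen after their values were seen. Members, lists and limits were chosen with earlier results of these data known. Of the 84 names, 82 were found on chromosome 4 in the release 6 gene table, used for names only. A planned count of promoter motifs was not run, and no sequence is printed. Alternatives were the pseudocount, the filter, centring, short loci, CG32850 and repeated rows. Python 3.11.15, pandas 2.3.3 and scipy 1.17.1 were used.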

Additional observations from a re-analysis of the deposited data

How the results depend on the processing

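Of 315 values recomputed under 9 alternatives, 291 stayed within 1.5 times of a count or 0.1 (log2) of a median. That limit is wide, since 0.1 exceeds the differences of Piwi (0.07) and Armi (0.04) from the other arms. The HP1a difference, 0.15 as reported and 0.07 with no filter, counted as within it. Counts below control could not move with the pseudocount. In all 45 recomputed cases the median of chromosome 4 stayed above that of the other arms, by 0.07 to 0.16 in HP1a, 0.10 to 0.25 in Mael, 0.09 to 0.15 in CG3893, 0.02 to 0.08 in Piwi and 0.01 to 0.04 in Armi. All 45 use the same 6 libraries and the single control. The cases centred on the other arms could not alter the difference between the medians, since centring moves both alike. Relative to the mean of the 6 libraries, an alternative added later, that difference was 0.033 in HP1a and 0.12 in Mael. Its sign turned in Piwi (-0.010) and Armi (-0.046), which largely follows from that base, since control lay below the mean. Without members whose locus overlaps another, the difference between the medians against control was 0.21 in Mael and 0.14 in HP1a. With no filter on low values it was 0.10 in Mael, and 23 genes in Mael and 17 in CG3893 were below control, of 83. The share of all genes below control was not computed without the filter.

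The counts that follow are of chromosome 4 genes. The share of all genes past each limit was not computed under these settings, so the counts cannot be set against it. With a pseudocount of 0.1 RPKM, genes past 2-fold higher numbered 5 in Piwi and 4 in Mael, while HP1a had 10 past 1.5-fold higher and 2 past 1.5-fold lower. With a pseudocount of 5 RPKM, those past 1.5-fold higher numbered 3 in HP1a, 3 in Mael, 2 in CG3893, 2 in Piwi and 2 in Armi, those past 1.5-fold lower 0 in Mael and 0 in HP1a, and 1 was past 2-fold higher in HP1a. When members had to average 5 RPKM or more, each of Piwi, Armi, CG3893 and HP1a had 2 past 1.5-fold higher, and 1 past 2-fold in HP1a. Centred on the other arms, 8 were past 1.5-fold higher in HP1a. Without CG32850, 1 was past 2-fold higher in each of Piwi, Mael and CG3893. Counts of bt, sphinx, CG33521 and yellow-h thus depend on the pseudocount and filter, since these genes average under 5 RPKM. No paired analysis was possible because each group holds 1 library, which also means that no library could be left out. For all but 2 members the number of reads is unknown.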
